A study of Mus musculus with 6 samples.

Results

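Nfatc1 and the genes of calcineurin signalling were described here in mouse bone marrow macrophages, on Affymetrix Mouse Genome 430 2.0 arrays. The members were 8 of the 18193 genes named by the platform: the transcription factor genes Nfatc1, Nfatc2, Nfatc3 and Nfat5, the calcineurin regulator gene Rcan1, and the calcineurin subunit genes Ppp3ca, Ppp3cb and Ppp3r1. Every probe set whose platform annotation gives exactly 1 symbol, that of a member, was taken, which gave 31 of 45037 probe sets, and 1 further probe set annotated to Ppp3r1 together with another gene was left out. Each probe set is described on its own. Of the 31, 21 passed a filter on dim probe sets (at least 3 of the 6 arrays had to read it above the array's own median) and are called kept below, and the other 10 are given by their values.

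The macrophages came from C57BL/6 mice lacking both TNF receptors (TNFR1-/-R2-/-) and carried a retrovirus for a chimeric receptor, in which the external domain of mouse TNFR1 was joined to the transmembrane and intracellular domains of mouse RANK. The wild-type group (n = 3 arrays) had an intact RANK part, whereas inactivating mutations in the IVVY motif distinguished the mutant group (n = 3 arrays). Selection lasted 3 days in puromycin (2 ug/ml) for both groups, which were then kept for 24 hours with 44 ng/ml of M-CSF and 10 ng/ml of TNF, so that TNF addressed the outer part of the receptor in either group. RNA of 6 dishes was pooled for each array, and 3 independent assays gave 1 mutant and 1 wild-type array each, called assay 1, 2 and 3 by the replicate number. The sources used here do not give the amount of chimeric receptor on the cells. The 8 macrophage markers looked at, such as Csf1r and Cd68, were all kept, with a summed intensity of 139905 to 157405 on the mutant and 142465 to 155055 on the wild-type arrays. The T cell genes Cd3e, Cd3g and Cd3d, looked at because T cells also make NFAT proteins, were below the filter, as were Cd2 and Cd8a, while Cd4 was kept and read 29.2, 19.5 and 26.6 on mutant array 3 and wild-type arrays 2 and 3 and 4.50 to 5.46 on the other 3 arrays. Of 8 stromal markers 5 were kept. The summed intensity of all 8 was 4685 and 3370 on the mutant and wild-type array of assay 3 but 61.9 to 159 on the other 4 arrays.

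NFAT proteins are transcription factors that wait in the cytoplasm in a phosphorylated form. When calcium in the cell rises, calmodulin switches on calcineurin, a phosphatase made of a catalytic subunit (from Ppp3ca or Ppp3cb) and a regulatory subunit (from Ppp3r1), which removes the phosphates and lets NFAT enter the nucleus. In osteoclast precursors RANK signalling raises Nfatc1, which then acts on its own gene and on the genes of bone resorption, while Rcan1 is both a target and an inhibitor of calcineurin signalling. Nfat5 differs from the others in that it lacks the calcineurin docking region and is known for its response to osmotic stress. The question behind the comparison was which genes the IVVY motif of RANK regulates in macrophages.

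The probe sets of Nfatc1 did not give one answer. On 2 of them the mutant arrays read lower, with means of 252 against 518 on 1417621_at and 12.2 against 37.9 on 1425761_a_at, which was dim. On another both groups read alike, and the last 2 lay close to the floor of the arrays. In bulk RNA of this kind, fewer cells that express a gene and less RNA per cell cannot be told apart. The sources used here do not say which stretch of the transcript each probe set reads.

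Probe set 1417621_at of Nfatc1 read 312, 274 and 170.2 on mutant arrays 1, 2 and 3 and 478, 536 and 540.3 on wild-type arrays 1, 2 and 3. All mutant arrays lay below all wild-type arrays, and the wild-type values stood close together while the mutant values spread. The means were 252 ± 73.5 against 518 ± 34.7 (SD, n = 3 each). On the log2(intensity + 16) scale the difference, mutant minus wild type, was -1.03 ± 0.23 (SE), a 2.05-fold lower level, with a 95% interval of -1.62 to -0.45. Within assays 1, 2 and 3 it was -0.59, -0.93 and -1.58. The difference did not pass the limma test over all 22497 kept probe sets (adjusted p = 0.99998, and 0.859 in the fit that blocks on the replicate number), where 0 probe sets passed in either fit. Leaving out each array or each assay in turn gave -1.25 to -0.76.

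Probe set 1425761_a_at of Nfatc1 was dim, with 16.3, 8.71 and 11.7 on the mutant and 24.3, 37.3 and 52.3 on the wild-type arrays. Again no mutant array reached a wild-type array. It was above the array median on all 3 wild-type arrays and on 2 of 3 mutant arrays, so it needed the group where it was high to pass the filter. The difference was -0.91 ± 0.23 (SE) on the log2(intensity + 16) scale and -0.32, -1.11 and -1.30 within assays 1, 2 and 3 (limma, adjusted p = 0.99998). Its size rested on the pseudocount, at -1.53 with a pseudocount of 1 and -0.41 with 64.

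Probe set 1428479_at of Nfatc1 read 775, 906 and 906 on the mutant and 817, 869 and 861 on the wild-type arrays. Here the groups overlapped, with the lowest and the highest value both in the mutant. The difference was 0.02 ± 0.10 (SE) with a 95% interval of -0.24 to 0.28, and the pairs of assays 1, 2 and 3 gave -0.08, 0.06 and 0.07. The difference of 1417621_at lies outside this interval, but the differences of these probe sets were not tested against each other. That the Nfatc1 probe sets disagree was known before they were described here.

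The other Nfatc1 probe sets were near the floor. Probe set 1447084_at, below the filter, read 8.20, 7.21 and 8.20 on the mutant arrays and 8.63, 22.6 and 46.5 on the wild-type arrays. It was thus above its array's median only on wild-type arrays 2 and 3, while wild-type array 1 stood 1.05 times above its mutant partner. Probe set 1447085_s_at read 8.13, 9.24 and 8.96 on the mutant against 12.9, 12.5 and 9.47 on the wild-type arrays, with a difference of -0.15 ± 0.09 (SE). Its groups did not overlap as deposited but did once the arrays were given 1 common median of the kept probe sets on the log2(intensity + 16) scale.

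**Figure D1:**
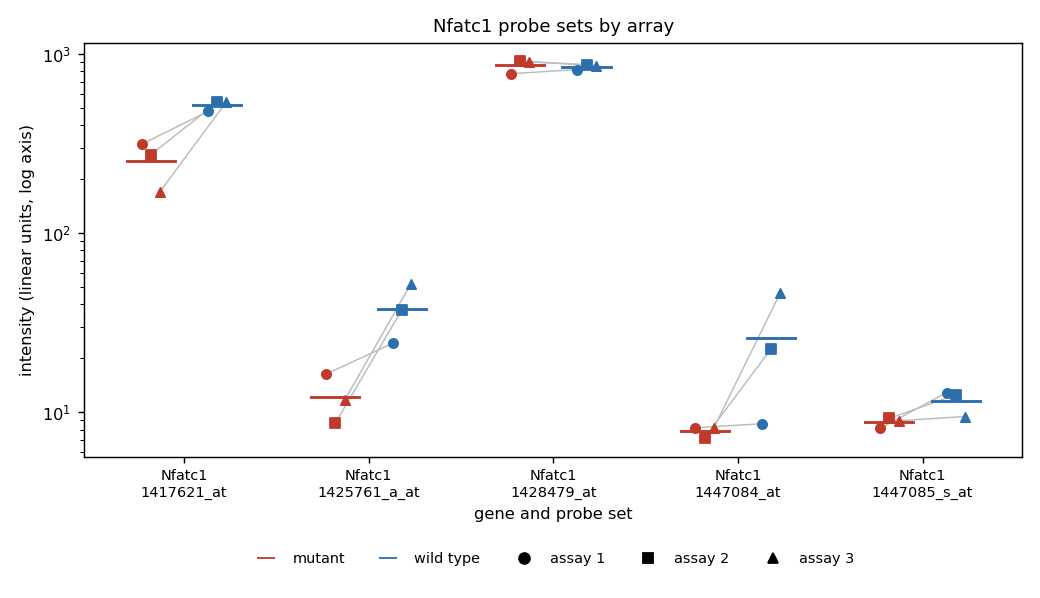
Intensity of the 5 Nfatc1 probe sets on each array (log axis), mutant in red and wild type in blue, with circles, squares and triangles for assays 1, 2 and 3, grey lines joining arrays of 1 assay and bars at the group means (n = 3 each). The lines rise from mutant to wild type in every assay for 1417621_at, from 170.2 to 540.3 in assay 3, and lie flat for 1428479_at.

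The same values can be written as distances within each array from 1428479_at, which adds no evidence to the differences above. On the log2(intensity + 16) scale 1417621_at stood -1.27, -1.67 and -2.31 from it on mutant arrays 1, 2 and 3, and -0.75, -0.68 and -0.66 on the wild-type arrays. The change between groups was unequal for these probe sets of a single gene, by -1.05 on the mean. For 1425761_a_at the same distance averaged -4.96 ± 0.32 on the mutant arrays and -4.04 ± 0.34 on the wild-type arrays (SD, n = 3 each). These within-array distances share the reference, so they are not independent of each other. Averaging the kept Nfatc1 probe sets into 1 value gave a difference of -0.52, while the probe set with the highest mean alone gave 0.02.

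The 21 kept member probe sets had a median log2 difference of -0.03, with 13 means lower and 8 higher on the mutant arrays, against a median of 0.0039 over all 22497 kept probe sets. By limma 0 members passed (0.0% of all kept probe sets passed, or 0.00445% with a random block). An unadjusted p under 0.05 was found for 2 members, both of Nfatc1 and both lower, while 0.649% of all kept probe sets were lower and 0.231% higher at such a p. In the blocked fit the same 2 had such a p, against 2.78% lower and 2.5% higher among all kept probe sets. All mutant arrays lay below all wild-type arrays on 3 member probe sets, those of Nfatc1 named above, against 1.59% of all kept probe sets, and the reverse was seen on 0 members and on 1.47% of all. Of these 3, 1425761_a_at and 1447085_s_at needed the wild-type group to pass the filter (above the array median on 2 and 1 mutant arrays but on all 3 wild-type arrays). The filter could thus favour their direction. Every count of members in this paragraph that includes them, also the 6 lower within all 3 assays, is a description only. Within all 3 assays the mutant array was lower on 6 member probe sets, 3 of Nfatc1 and 3 of Nfat5, against 11.7% of all kept probe sets. It was higher within all 3 assays on 2, of Ppp3cb and Ppp3r1, against 13.8%. Since several of these probe sets are annotated to the same gene and all were read on the same arrays, these counts are not counts of independent features. Without both arrays of assay 3, where stromal markers were high, the mutant arrays lay below the wild-type arrays on 5 member probe sets, the 3 of Nfatc1 and the Nfat5 probe sets 1439328_at and 1439805_at, against 11.0% of all kept probe sets in that smaller comparison. Leaving out mutant array 3 alone gave the same count of 5, against 7.41%. With the filter at the 70th percentile, 3 members were lower within all 3 assays, against 12.6% of the probe sets then kept, and 1417621_at of Nfatc1 was the 1 member without overlap, against 1.51%.

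**Figure D2:**
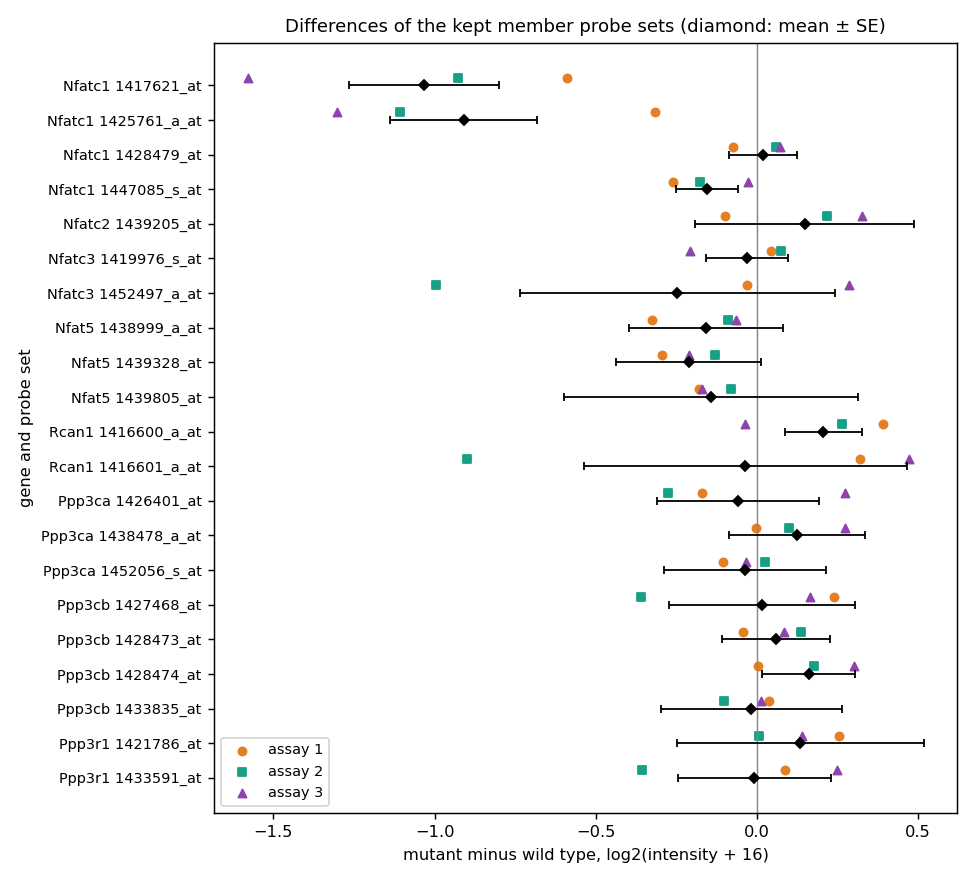
Difference between mutant and wild type on the log2(intensity + 16) scale for the 21 kept member probe sets. Diamonds and bars give the mean difference ± SE over all 6 arrays, and the coloured symbols the differences within assays 1, 2 and 3. Nfatc1 1417621_at and 1425761_a_at lie at -1.03 and -0.91, while the other 19 lie between -0.25 and 0.21.

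Nfatc2, the family member best known from T cells, was read by 6 probe sets, of which 1 was kept. Probe set 1439205_at read 662, 1319 and 806 on the mutant and 710.2, 1133 and 639 on the wild-type arrays. Both groups were highest in assay 2, and they overlapped. The difference was 0.15 ± 0.34 (SE), and -0.10, 0.22 and 0.33 within assays 1, 2 and 3. Its 95% interval in the blocked fit was -0.18 to 0.47. The other 5 probe sets of Nfatc2 read 4.57 to 7.19 on all arrays except 1425990_a_at, which read 19.0 and 20.9 on the mutant and wild-type arrays of assay 1 and 5.43 to 7.60 elsewhere.

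Nfatc3 had both its probe sets kept. Probe set 1419976_s_at read 542, 647 and 524 on the mutant and 525, 614 and 607 on the wild-type arrays, with a difference of -0.03 ± 0.13 (SE). On 1452497_a_at the mutant read 87.3, 30.1 and 147.5 and the wild type 89.4, 75.9 and 118. The mean difference of -0.25 ± 0.49 (SE) came from assay 2, whose pair differed by -0.996 while those of assays 1 and 3 differed by -0.03 and 0.28. Without both arrays of assay 2 the difference was 0.13.

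Nfat5 was the other member that leaned to one side. Its 3 kept probe sets were all lower in the mutant in every assay, by small amounts, and their groups overlapped. Probe set 1438999_a_at read 246, 337 and 426 on the mutant and 312, 359 and 446 on the wild-type arrays. Probe set 1439328_at read 26.5, 25.9 and 44.0 against 36.2, 29.8 and 53.4. Probe set 1439805_at read 151, 158 and 345 against 173, 168 and 390.01. In each case the assays differed more than the groups, since both arrays of assay 3 were the highest in their group, and these are the arrays with high stromal markers, whose part in these levels was not tested.

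The differences of the Nfat5 probe sets were -0.16 ± 0.24, -0.21 ± 0.23 and -0.14 ± 0.46 (SE) in that order. In the blocked fit the 95% intervals were -0.42 to 0.10, -0.44 to 0.01 and -0.35 to 0.07, each of which includes 0 (limma, adjusted p = 0.860, 0.859 and 0.859). The within-assay differences ran from -0.32 to -0.06. The other 3 Nfat5 probe sets were below the filter, at 4.35 to 11.8 on all arrays.

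Rcan1 encodes a protein that binds calcineurin and restrains it, and its gene has an internal start known to respond to NFAT. RefSeq (GRCm38.p6) gives 2 starts in the promoter table, and the 250 bases before each are shown to set the NFAT core letters beside the readings of this feedback gene. Capitals mark GGAAA or, on the other strand, TTTCC, the only motif searched.

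Rcan1 first start, chr16:92466170-92466419, minus strand: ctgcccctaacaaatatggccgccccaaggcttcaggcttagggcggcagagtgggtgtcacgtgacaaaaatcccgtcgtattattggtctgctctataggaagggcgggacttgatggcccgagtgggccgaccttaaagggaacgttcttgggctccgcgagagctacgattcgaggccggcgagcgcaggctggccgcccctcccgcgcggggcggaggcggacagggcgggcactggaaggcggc
Rcan1 internal start, chr16:92400079-92400328, minus strand: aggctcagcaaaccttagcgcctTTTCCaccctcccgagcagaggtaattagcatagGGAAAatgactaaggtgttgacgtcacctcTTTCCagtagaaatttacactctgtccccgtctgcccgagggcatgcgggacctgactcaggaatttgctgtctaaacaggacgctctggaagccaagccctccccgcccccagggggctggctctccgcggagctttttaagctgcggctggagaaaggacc

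The window before the internal start held the core 3 times, with first letters 227 to 163 bases before the start, and the window before the first start 0 times. Of all 32851 promoter windows of this length in the table, 55.6% held it at least 1 time and 6.39% at least 3 times. Among the other members with an entry, it was found 3 and 1 times at the starts of Nfatc2, 1 and 0 times at those of Nfatc3, 2 times at Nfat5, 3 times at Ppp3cb and 0 times at Ppp3r1. A match shows only that the letters are there.

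The Rcan1 readings did not separate the groups. Probe set 1416600_a_at read 332, 318 and 261 on the mutant and 249.6, 262 and 269 on the wild-type arrays. Mutant arrays 1 and 2 were above all wild-type arrays and mutant array 3 was within them. The difference was 0.21 ± 0.12 (SE), with 0.39, 0.26 and -0.04 within assays 1, 2 and 3 (limma, adjusted p = 0.99998). Probe set 1416601_a_at read 153, 32.9 and 113 on the mutant against 119, 75.4 and 77.2 on the wild-type arrays. Its pairs went 0.32, -0.90 and 0.47, so that the mean difference of -0.04 ± 0.50 (SE) hid unlike assays. Mutant array 2, with 32.9, was the lowest of all 6 arrays on this probe set, and it was also the lowest on 1452497_a_at of Nfatc3. The sources used here do not say which Rcan1 transcripts these probe sets read.

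The calcineurin subunit genes did not separate the groups, which does not show that they were alike. Their 9 kept probe sets had differences from -0.06 to 0.16, with a median of 0.02 and medians of 0.0041, 0.0075 and 0.17 within assays 1, 2 and 3. None of the 9 passed by limma without or with the block, and 0 had an unadjusted p under 0.05 in either fit. On none of them were the groups free of overlap. In the fit without a block the widest 95% interval was -0.83 to 1.10, for 1421786_at of Ppp3r1.

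Ppp3ca encodes the alpha catalytic subunit, which carries the phosphatase site. Its probe set 1426401_at read 1175, 1381 and 2110 on the mutant and 1325, 1674 and 1745 on the wild-type arrays, a difference of -0.06 ± 0.25 (SE). Probe set 1452056_s_at read 505 to 806 in the mutant and 544 to 825 in the wild type. Probe set 1438478_a_at read 295 to 479 and 296 to 393. In the blocked fit the 95% intervals for the 3 were -0.45 to 0.33, -0.25 to 0.18 and -0.13 to 0.38. On each probe set assay 1 gave the lowest value of either group.

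Ppp3cb encodes the beta catalytic subunit and had 5 probe sets, 4 of them kept. Probe set 1428473_at read 1231, 1160.0 and 967 on the mutant and 1270, 1053 and 910 on the wild-type arrays, a difference of 0.06 ± 0.17 (SE). Probe set 1428474_at read 42.0, 34.0 and 39.4 on the mutant and 41.9, 28.3 and 29.0 on the wild-type arrays. It was higher in the mutant in every pair, by 0.0041, 0.18 and 0.30 in assays 1, 2 and 3, the first of which is close to 0. Probe sets 1427468_at and 1433835_at differed by 0.02 ± 0.29 and -0.02 ± 0.28 (SE). Probe set 1446149_at, below the filter, read 7.90 to 9.12 on 5 arrays and 18.5 on wild-type array 3.

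Ppp3r1 encodes the calcium-binding regulatory subunit. Probe set 1433591_at read 819, 929 and 1256 on the mutant and 771, 1194 and 1055 on the wild-type arrays, a difference of -0.01 ± 0.24 (SE). Probe set 1421786_at read 158, 178 and 324 against 129.9, 177 and 293. It was higher in the mutant in every assay, by 0.25, 0.0075 and 0.14, and both its highest arrays were those of assay 3. In the blocked fit its 95% interval was -0.11 to 0.38.

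**Figure D3:**
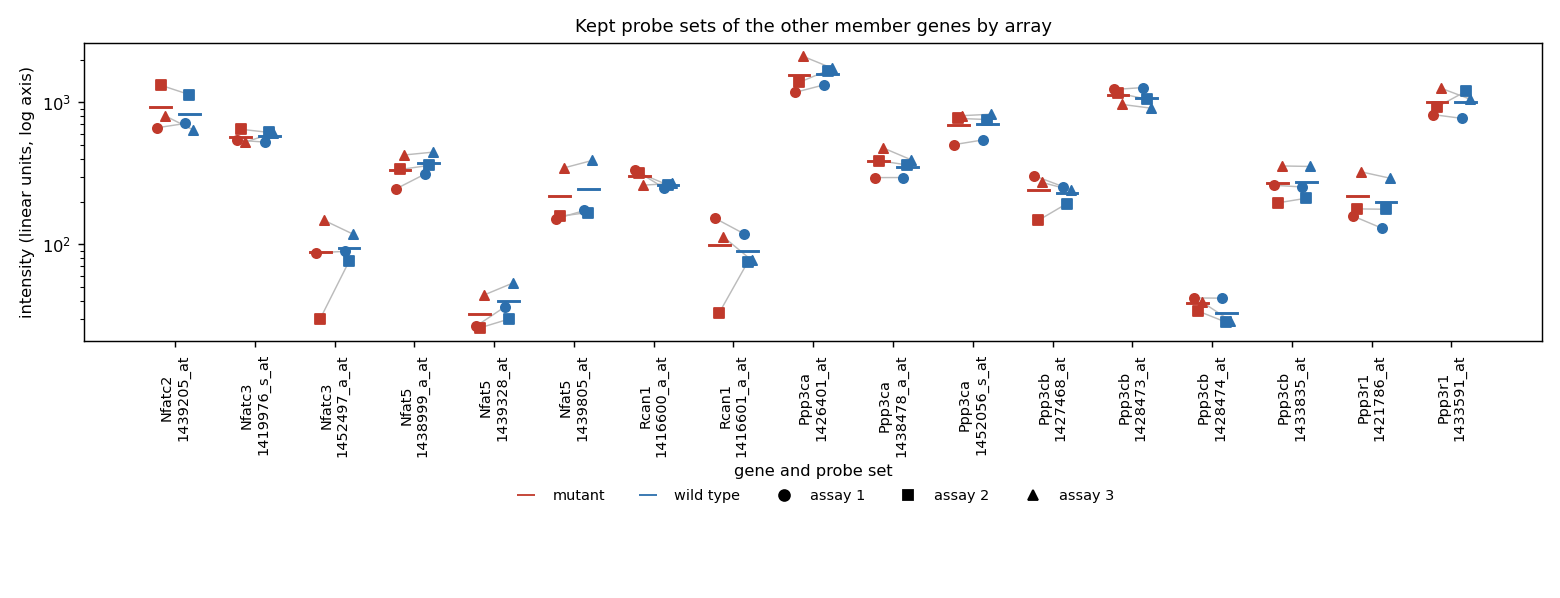
Intensity of the 17 kept probe sets of the other 7 member genes on each array (log axis), with the same colours, symbols, lines and mean bars as in the plot of Nfatc1 (n = 3 arrays a group). Mutant and wild-type arrays overlap on every probe set shown, and same-numbered arrays often stand together, as on Nfat5 1439805_at, where assay 3 reads 345 and 390.01 and the other arrays 151 to 173.

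Genes that Nfatc1 is known to switch on in osteoclasts were set beside it. Of 12 such genes 10 were kept, and each of these 10 had a lower mean in the mutant and was lower in every assay (1247 of all 10372 genes were), with a median log2 difference of -1.47 against 0.0087 over all 10372 genes. Mutant arrays were all below wild-type arrays for 7 of the 10, and for 203 of the 10372 genes. By limma 0 passed, with 6 at an unadjusted p under 0.05 (118 of the 10372 genes, in either direction), and in the blocked fit 0 passed and 8 had such a p (611 of the 10372). Calcr and Ocstamp were above the array median on 0 mutant and 3 wild-type arrays and Car2 on 1 and 3, so these 3 needed the group where they were high to be kept. Calcr and Ocstamp thus had to be lower in the mutant, and for Car2 the filter could favour that direction. The counts and the median of the list include these 3 genes and are a description only. The list overlaps with osteoclast genes already known to be lower on these arrays, so its direction is not independent evidence.

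The largest differences in the list were those of Mmp9, a matrix-degrading protease, Ctsk, which encodes the collagen-degrading cathepsin K, and Acp5, which encodes the tartrate-resistant acid phosphatase. Acp5 read 505, 219.5 and 818 on the mutant and 4462, 3745 and 9497 on the wild-type arrays. The log2 differences of Acp5 within assays 1, 2 and 3 were -3.10, -4.00 and -3.51, those of Mmp9 -5.07, -5.18 and -4.38, and those of Ctsk -3.90, -1.63 and -5.93. Nfatc1 1417621_at, by comparison, had -0.59, -0.93 and -1.58, so all 4 were lower in each assay, while the assay with the largest difference was assay 3 for this probe set and Ctsk and assay 2 for Acp5 and Mmp9. Dcstamp, which is needed for precursor fusion and is a direct target of Nfatc1, read 12.7, 13.2 and 15.5 against 71.8, 67.1 and 200.4. Oscar and Itgb3 were below the filter and read above 10 only on wild-type array 3.

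**Figure D4:**
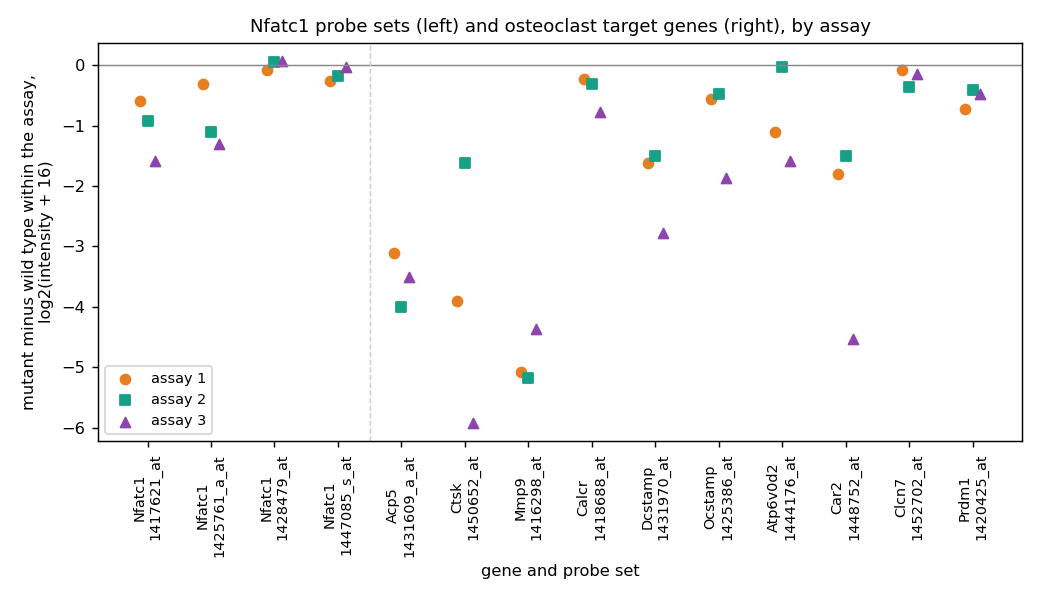
Difference between the mutant and the wild-type array of each assay on the log2(intensity + 16) scale, for the 4 kept Nfatc1 probe sets (left of the dashed line) and the 10 kept osteoclast target genes (right). All symbols of the target genes lie below 0, from -5.93 for Ctsk in assay 3 to -0.03 for Atp6v0d2 in assay 2, while Nfatc1 1428479_at lies at 0.

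Among genes for proteins that act around calcineurin and NFAT, 0 passed. In the list of other calcineurin and NFAT genes 7 were kept, with log2 differences of 0.0075 to 0.14 and 0 of 7 passing by limma. The smallest p there belonged to Fkbp1a, the target of the drug FK506, at 0.14 ± 0.20 (SE), followed by Nfatc2ip, an NFAT partner, at 0.07 ± 0.15 and the calcineurin inhibitor gene Cabin1 at 0.11 ± 0.22. Nfatc4, Rcan2, Ppp3r2 and Homer2 were below the filter, and Nfatc4 read 6.37 to 6.46 on all arrays. Of 7 kinases that put phosphates back on NFAT, 4 had a lower and 3 a higher mean, with a median of -0.07 and 0 passing by limma. Dyrk1a differed by 0.11 ± 0.10 (SE), Csnk1e by -0.17 ± 0.23 and Dyrk2 by -0.18 ± 0.30. Dyrk2 went -0.28, -0.10 and -0.18 within assays 1, 2 and 3, and its SE in the blocked fit was 0.08. In every assay 1 of the 7 kinases was lower and 3 were higher, against 1247 and 1502 of all 10372 genes. The 3 calmodulin genes matched no probe set with a single symbol.

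Calcium entry and release, which feed calcineurin, were covered by 12 kept genes with a median of -0.06. Of these, 7 had a lower and 5 a higher mean, and 0 passed by limma. In every assay 4 of the 12 genes were lower and 2 were higher, against 1247 and 1502 of all 10372 genes. Stim2, a calcium sensor of the endoplasmic reticulum, read 445, 563 and 547 on the mutant and 580.2, 603 and 698 on the wild-type arrays. All its mutant values were below all wild-type values, as for 203 of all 10372 genes, by -0.27 ± 0.14 (SE) on the mean. The store-operated channel genes Orai1 and Orai2 differed by -0.23 ± 0.16 and -0.25 ± 0.20 (SE), with overlapping groups. Plcg2, a phospholipase whose product triggers calcium release, differed by -0.05 ± 0.23.

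Among 7 partner factors of Nfatc1 at its target genes, 1 had all mutant arrays below all wild-type arrays, as 203 of all 10372 genes did. Fosl2, an AP-1 factor, read 487, 629 and 390.5 on the mutant and 683, 694 and 901 on the wild-type arrays, a difference of -0.60 ± 0.21 (SE; limma, adjusted p = 0.99998). Within assays 1, 2 and 3 it was -0.47, -0.14 and -1.17. Junb differed by -0.54 ± 0.64 and Jun by 0.21 ± 0.36 (SE). Within assays 1, 2 and 3 Junb went -0.18, -0.31 and -1.13, and its SE in the blocked fit was 0.22. In every assay 2 of the 7 partners were lower and 0 higher, against 1247 and 1502 of all 10372 genes. Fos, the AP-1 factor that acts on the Nfatc1 gene, went 0.38, 0.03 and -1.10 in assays 1, 2 and 3. Of the 7 partners 5 had a lower and 2 a higher mean, with a median of -0.06 and 0 passing. The 3 kept repressors, Bcl6, Id2 and Irf8, had differences of 0.34 ± 0.30, 0.21 ± 0.95 and 0.01 ± 0.29 (SE), and 0 passed.

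Known targets of Nfat5, which protect cells from osmotic stress, were split. Of 5 kept genes 4 had a lower and 1 a higher mean, with a median of -0.07 and 0 passing by limma. Slc5a3, the myo-inositol transporter gene, read 129.7, 213 and 456 on the mutant and 228, 455 and 1139 on the wild-type arrays. It was lower in the mutant in every assay (as were 1247 of all 10372 genes), by -0.74, -1.04 and -1.29, although its groups overlapped. Slc6a12, the betaine transporter gene, read 13.3, 10.6 and 13.5 against 46.7, 16.9 and 115.8, with all mutant arrays below all wild-type arrays (203 of all 10372 genes). The taurine transporter gene Slc6a6 and the amino acid transporter gene Slc38a2 differed by -0.03 ± 0.22 and -0.07 ± 0.15 (SE). In the blocked fit Slc5a3 and Slc6a12 had an unadjusted p under 0.05, as 611 of all 10372 genes did, and neither passed (limma, adjusted p = 0.859 each).

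**Figure D5:**
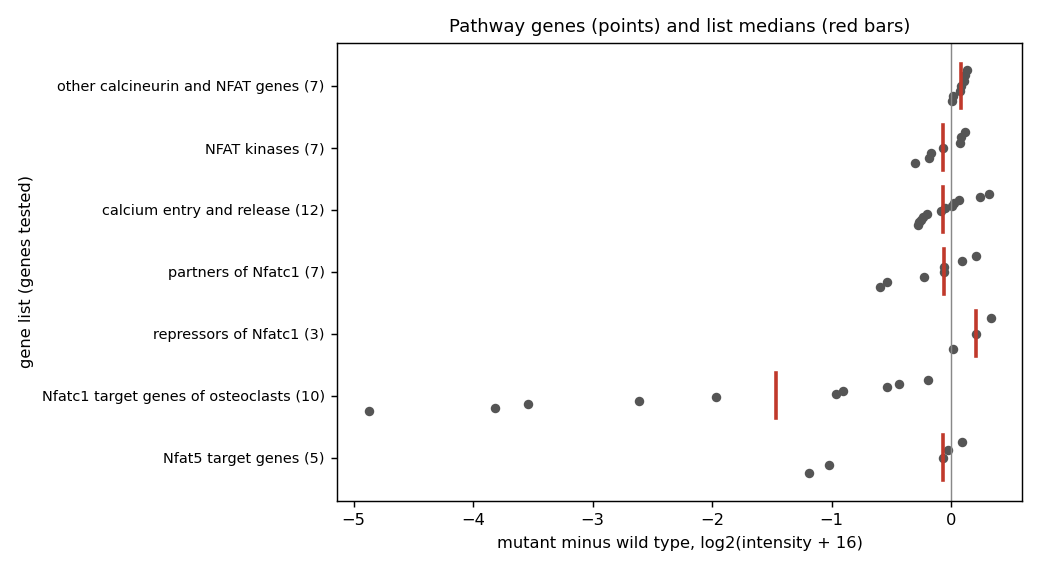
Difference between mutant and wild type on the log2(intensity + 16) scale for the kept genes of the pathway lists (points), with the list medians as red bars and the number of genes in brackets. The osteoclast target genes have a median of -1.47, and the medians of the other lists lie between -0.07 and 0.21.

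The probe sets of Nfatc1 also differed in what they resembled. Over the 6 arrays, the highest Pearson correlations of 1417621_at among kept probe sets with 1 symbol were with 2610528A11Rik (r = 0.986), Ube2v1 (r = 0.983), Gss (r = 0.970), Mt2 (r = 0.967) and Tomm20 (r = 0.966), and all 5 were lower on the mean in the mutant. For 1425761_a_at they were Vegfc (r = 0.987), Mrpl48 (r = 0.982), Smurf1 (r = 0.978), Met (r = 0.974) and Grk3 (r = 0.967). Vegfc read 40.4, 11.4 and 10.3 on the mutant and 65.3, 119.6 and 219.2 on the wild-type arrays, so that its wild-type arrays stood in the same order as those of the probe set itself. The nearest to 1428479_at were Slc38a9, Rab2b, Csnk1g1, Cdadc1 and Atxn1 (r = 0.992 to 0.995), with log2 differences between the groups of 0.02 to 0.16. For 1447085_s_at, near the floor, they were Dnm2, Oxa1l, Meg3, Mark4 and Yipf2 (r = 0.952 to 0.994). These correlations describe 6 arrays that share assays in pairs. Being picked for likeness to an Nfatc1 probe set largely fixed the group differences and the array order of these probe sets, so neither is a separate result.

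Between the members, 1417621_at and 1425761_a_at of Nfatc1 correlated at r = 0.853 over the 6 arrays, and 1417621_at and 1428479_at at r = -0.345. The member probe set most like 1428479_at was 1452056_s_at of Ppp3ca (r = 0.904), whose values were lowest in assay 1 in both groups as well. No other member correlated with 1417621_at above r = 0.629, the value for 1447085_s_at of the same gene.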

How the data were processed

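The deposited values were intensities on a linear scale, 1 per probe set and array, made with GCOS and GCRMA per the submitters' processing notes, which give no version. GCRMA brings arrays to a like distribution and draws dim values to a floor. As the arrays had 75th percentiles of 160.5 to 164, they were compared as deposited. Groups and replicate numbers came from the sample titles. Of 45101 probe sets 64 controls were left out, and the platform annotation gave 1 symbol for 34945, several for 932 and none for 9160. Intensities were transformed to log2(value + 16), so differences of dim probe sets are understated. Probe sets above the median (percentile 50) of their own array on at least 3 arrays were kept, 22497 in all. Mutant minus wild type was tested, two-sided, with limma 3.58.1 in R 4.3.3, with Benjamini-Hochberg adjustment over all kept probe sets and a threshold of 0.05. Differences given with ± SE come from the fit without a block, so their SE includes the spread between assays. For a list gene, the brightest kept probe set was used. Named were every Nfatc1 and Rcan1 probe set, members on one side in every pair or without overlap, up to 3 list genes with the smallest p, the 5 nearest probe sets to each kept Nfatc1 probe set, and further genes chosen after their values were seen (Ctsk, Oscar, Itgb3, Calcr, Ocstamp, Car2, Nfatc4, Rcan2, Ppp3r2, Homer2, Plcg2, Fos, Slc6a6 and Atp6v0d2). Members and lists were chosen with earlier results of these data known.

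Same-numbered arrays came from the same assay per the labels' protocols, and their deviations from the group means correlated at 0.671 to 0.845 across probe sets, against -0.618 to -0.0138 for other mutant and wild-type arrays, and the replicate numbers were therefore read as pairs. The number of arrays limits the precision.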

Additional observations from a re-analysis of the deposited data

How the results depend on the processing

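The count of member probe sets that pass by limma was 0 under every alternative run. Blocking on the replicate number as a fixed term gave 0 members and 0 of all probe sets, so the pairing changed no call, and as a random term it gave 1 of all probe sets, which is no member. Filtering at the 70th percentile, which tests fewer probe sets, left 3 members lower in every pair (12.6% of all probe sets so filtered) and 1 without overlap (1.51%). Leaving out an array or an assay gave 3 to 5 members with all mutant arrays below all wild-type arrays, and a median member difference of -0.16 to 0.038. The count of 5 arose without both arrays of assay 3 (11.0% of all kept probe sets) and without mutant array 3 (7.41%), against 1.59% with all arrays. These counts include 1425761_a_at and 1447085_s_at, which needed the wild-type group to pass the filter. Log2 differences whose sign turned, none of which had passed, ranged as follows when an array or assay was left out: Nfatc1 1428479_at -0.018 to 0.093, Nfatc2 1439205_at -0.13 to 0.39, Nfatc3 1419976_s_at -0.12 to 0.059 and 1452497_a_at -0.66 to 0.25. For Nfat5 they were 1438999_a_at -0.34 to 0.038 and 1439805_at -0.50 to 0.23, and for Rcan1 1416601_a_at -0.40 to 0.50. For Ppp3ca they were 1426401_at -0.30 to 0.12, 1438478_a_at -0.035 to 0.30 and 1452056_s_at -0.21 to 0.17. For Ppp3cb they were 1427468_at -0.17 to 0.31, 1428473_at -0.054 to 0.18 and 1433835_at -0.22 to 0.18, and for Ppp3r1 1421786_at -0.16 to 0.43 and 1433591_at -0.18 to 0.17. Rcan1 1416601_a_at also turned to 0.016 with a pseudocount of 64. When the kept probe sets of a gene were averaged, its difference was -0.52 for Nfatc1, 0.0094 for Ppp3ca and 0.063 for Ppp3r1. The cause of these turns was not tested. Signal near the floor of the arrays limits 1425761_a_at, 1447084_at and 1447085_s_at of Nfatc1.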
